A study of Rattus norvegicus with 12 samples.

Results

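The genes described here encode the machinery of regulated vesicle exocytosis, the calcium-triggered release of transmitter and hormone from stored vesicles. They are 38 genes listed by symbol, chosen with earlier results of these data in view, and each was represented by the array feature that carries that symbol alone and has the highest mean over all arrays. All 38 were found among the 70580 features of the deposited table. Of these, 33 passed a filter on low values (a mean over the 12 arrays at or above 4.63 log2 units) and 5 did not. A second feature existed for Syt1, Syt7 and Unc13a.

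The samples were PC12 cells, derived from a rat pheochromocytoma and so from chromaffin tissue, and they carried an inducible GFP-tagged exon-1 fragment of huntingtin with 74 glutamines. The 4 groups held 3 arrays each. Non-induced cells received the vehicle DMSO and no doxycycline. Induced cells received doxycycline at 1 µg/ml with DMSO, with 10 µM compound 3, or with 10 µM compound 6, and the compound treatments lasted 48 h. The series title calls the compounds guanabenz analogues, and nothing further is said here of their structures. All groups were the same engineered line. Because doxycycline was given to the induced cells alone, the fragment and its inducer cannot be told apart. Expression of the introduced fragment was not analysed here. Nothing in the labels says that the numbered replicates were grown separately. The spread behind each p-value is that within groups of 3 samples, pooled over all 4 groups, and may therefore be technical.

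In neuroendocrine cells, secretory vesicles are carried to the plasma membrane and tethered there by small GTPases of the Rab3 and Rab27 families and their effectors. Priming factors then bring the vesicle SNARE (VAMP) together with the plasma membrane SNAREs (syntaxin and SNAP-25), complexins hold the assembled complex, and synaptotagmins and Doc2 proteins trigger fusion when calcium rises. Afterwards NSF and its SNAP adaptors take the SNARE complex apart for reuse. PC12 cells store dopamine and noradrenaline in dense-core granules and have long served to study these steps.

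Across the arrays, 9 of 10 chromaffin and sympathetic markers on the array lay above the filter (Th, Dbh, Ddc, Chga, Chgb, Phox2a, Hand2, Slc18a1 and Uchl1), and Slc18a2, a vesicular monoamine transporter, lay below it. Their mean level moved with the groups: it was 9.83 to 9.96 log2 units on non-induced arrays, 9.07 to 9.35 on induced DMSO arrays, 8.49 to 8.996 with compound 3 and 9.16 to 9.41 with compound 6. The mean of each of 5 marker lists of other cell types (fibroblast, glia, endothelium, adrenal cortex and leukocyte) stayed between 4.28 and 5.41 log2 units in all groups. Above the filter lay 3 of 6 fibroblast, 3 of 3 glial and 2 of 5 endothelial markers on the array. So did 3 of 3 adrenal cortex and 1 of 4 leukocyte markers. The part of all these markers in the results below was not tested. In bulk RNA, fewer cells of a type and less RNA per cell cannot be told apart. One array stood apart: 11 GC-rich background control features averaged 6.61 log2 units on induced DMSO 3 and 6.23 to 6.37 on the other 11 arrays. The 95th percentile of all values was 10.29 to 10.32 on non-induced arrays, 10.32, 10.18 and 10.09 on induced DMSO 1, 2 and 3, and 10.18 to 10.27 on compound arrays.

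**Figure D1:**
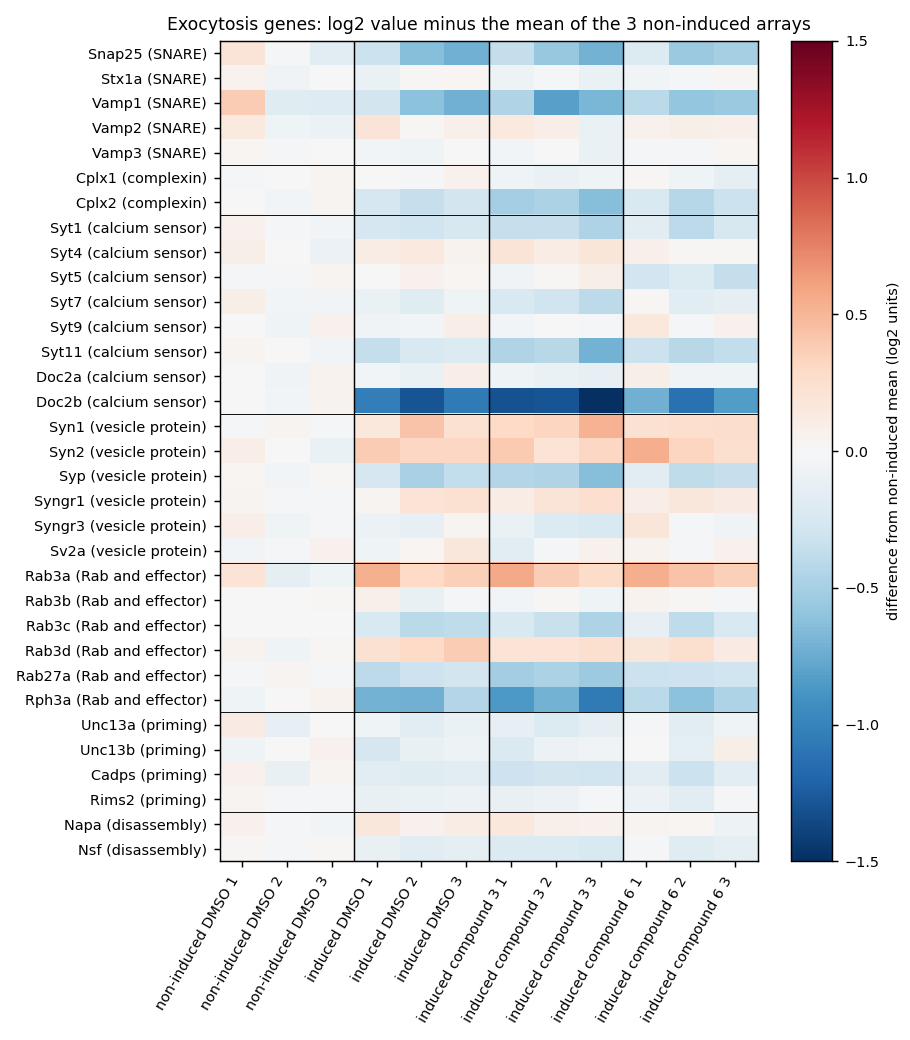
Colour shows, for each of the 33 genes above the filter (rows, grouped by role) and each of the 12 arrays (columns), the log2 value minus the mean of the 3 non-induced arrays. Doc2b is the darkest blue row on all 9 induced arrays, and Syn2, Rab3a and Rab3d are red on all 9.

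Induction was compared first, with both groups in DMSO, to ask what the fragment and its inducer change. Of the 33 genes tested, 13 differed at an adjusted p under 0.05, the threshold used throughout for calling a gene changed. Over all 34422 features tested, 9.06% were called, and 12% of the features with 1 gene symbol. Of the 13 genes, 9 fell (background 4.86% of all features and 4.89% of those with 1 gene symbol). The other 4 rose (background 4.2% and 7.14%). Those that fell were the SNARE gene Snap25, the complexin Cplx2, the synaptotagmins Syt1 and Syt11 and the calcium sensor Doc2b. The vesicle membrane protein Syp and the docking genes Rab3c, Rab27a and Rph3a fell too. Those that rose were the synapsins Syn1 and Syn2 and the GTPases Rab3a and Rab3d. The median difference over the 33 genes was -0.05 log2 units, beside 0.01 over all features.

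Doc2b, a calcium sensor with a high calcium affinity that binds SNAREs and Munc13, changed most in size among the 33. It read 10.61, 10.58 and 10.67 log2 units on the non-induced arrays and 9.58, 9.33 and 9.56 on the induced DMSO arrays. The group means lay more than a whole unit apart, with a narrow spread in each group. The fall was 2.19-fold, -1.13 ± 0.14 log2 units (SE, n = 3 arrays per group, adjusted p = 0.000734). Its paralog Doc2a read 7.20 to 7.40 on all 6 arrays and did not pass (-0.01, adjusted p = 0.951).

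Among the synaptotagmins, Syt1, the sensor of fast calcium-triggered fusion, read 8.44, 8.35 and 8.34 without induction and 8.12, 8.08 and 8.14 with it. It fell by 0.26 ± 0.06 log2 units (adjusted p = 0.0243), and its groups did not overlap. Syt11, a synaptotagmin that does not bind calcium, read 8.73, 8.68 and 8.65 without induction and 8.33, 8.46 and 8.48 with it. It fell by 0.26 ± 0.07 (adjusted p = 0.0474), again without overlap. The other 4 genes of the family above the filter did not pass: Syt4, Syt5, Syt7 and Syt9 differed by between -0.11 and 0.10 log2 units.

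Snap25, which supplies a pair of helices to the four-helix SNARE bundle, read 11.74, 11.52 and 11.38 on the non-induced arrays. On the induced DMSO arrays it read 11.22, 10.91 and 10.83. The lowest non-induced array lay just above the highest induced one, and the difference was -0.56 ± 0.13 log2 units, 1.47-fold (adjusted p = 0.023). Its partner syntaxin Stx1a read 8.07, 7.96 and 8.02 without induction and 7.92, 8.03 and 8.05 with it, a difference of -0.02 with a 95% interval from -0.13 to 0.09. The vesicle SNARE Vamp2 read 10.18, 9.97 and 9.94 and then 10.22, 10.05 and 10.11, with overlapping groups and a difference of 0.10 (-0.08 to 0.27). Vamp1, the other synaptobrevin, read 9.40, 8.84 and 8.83 without induction and 8.75, 8.41 and 8.30 with it. Every induced array was lower, but the difference of -0.54 ± 0.16 did not pass (adjusted p = 0.0607). Non-induced array 1 stood well above the rest, and without it the difference was -0.35 and did not pass either. Vamp1 passed under 5 of 23 alternative settings, 1 of them without induced DMSO 1. Vamp3, the widely expressed cellubrevin, differed by -0.03.

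Cplx2, a complexin, which clamps and then promotes fusion by assembled SNAREs, read 10.17, 10.13 and 10.22 without induction. It read 9.92, 9.83 and 9.90 with induction, below every non-induced array, and fell by 0.29 ± 0.06 (adjusted p = 0.0133). Cplx1 read 5.07 to 5.16 on the same 6 arrays and differed by 0.01.

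The vesicle proteins moved in both directions. Syp, synaptophysin, read 12.28, 12.20 and 12.26 without induction and 11.99, 11.76 and 11.88 with it. The groups did not overlap and the difference was -0.37 ± 0.08 (adjusted p = 0.0114). The synapsins, phosphoproteins that tether vesicles to one another and to the cytoskeleton, went the other way. Syn1 read 8.27, 8.34 and 8.28 and then 8.45, 8.73 and 8.53, a rise of 0.27 ± 0.08 (adjusted p = 0.0465). Syn2 read 8.59, 8.50 and 8.39 and then 8.88, 8.80 and 8.80, a rise of 0.33 ± 0.08 (adjusted p = 0.0268). In both synapsins every induced array exceeded every non-induced one. Syngr1, Syngr3 and Sv2a did not pass, with differences of 0.16, -0.05 and 0.05.

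The 4 Rab3 genes, whose products are vesicle GTPases, did not move together. Rab3a read 8.63, 8.29 and 8.36 without induction and 8.96, 8.73 and 8.78 with it, a rise of 0.40 ± 0.10 (adjusted p = 0.033). Rab3d read 8.46, 8.34 and 8.43 and then 8.64, 8.71 and 8.79, a rise of 0.30 ± 0.05 (adjusted p = 0.00412). Both lay higher on every induced array. Rab3c, in contrast, read 10.16, 10.17 and 10.16 and then 9.94, 9.76 and 9.78, and fell by 0.34 ± 0.08 (adjusted p = 0.0199). Rab3b read 5.96, 5.96 and 5.98 and then 6.04, 5.85 and 5.94, with overlapping groups (-0.02, adjusted p = 0.854).

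Rab27a, the GTPase that docks dense-core granules, read 10.04, 10.10 and 10.04 without induction and 9.67, 9.75 and 9.78 with it. It fell by 0.33 ± 0.04 (adjusted p = 0.00101), well beyond the spread within either group. Rph3a encodes rabphilin, an effector of both Rab3 and Rab27. It read 8.29, 8.36 and 8.41 and then 7.65, 7.63 and 7.91, a fall of 1.54-fold (-0.62 ± 0.10, adjusted p = 0.0021).

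None of the 4 priming genes above the filter passed the limma test after induction, and 1 of them had an unadjusted p under 0.05 (background over all features 21%). That gene was Cadps, which encodes the CAPS1 protein that primes dense-core granules. It read 9.11, 8.94 and 9.09 without induction and 8.88, 8.86 and 8.88 with it, lower on every induced array (-0.17, adjusted p = 0.0981). The Munc13 genes Unc13a and Unc13b differed by -0.11 and -0.15 and Rims2 by -0.10. Of the disassembly pair, the ATPase gene Nsf read 10.29, 10.24 and 10.29 and then 10.16, 10.12 and 10.14, also without overlap (-0.13, adjusted p = 0.109), and Napa, its alpha-SNAP adaptor, differed by 0.11. In all, 20 of the 33 genes had groups without overlap (background 22.7%), 15 of them lower (background 9.45%) and 5 higher (background 13.3%). Among features with 1 gene symbol these shares were 31.5%, 11.3% and 20.2%. The 5 higher genes, 15.2% of the 33, were thus fewer than that last share.

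The 5 genes under the filter were not tested. Their 12-array means were 4.46 for Sv2b and 4.01 for Sv2c, both vesicle glycoproteins, 3.64 for Rab27b, 3.92 for the priming gene Cadps2 and 4.55 for the active zone scaffold Rims1. Sv2b read 4.35 to 4.37 on the non-induced arrays and 4.44 to 4.66 on the induced DMSO arrays.

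**Figure D2:**
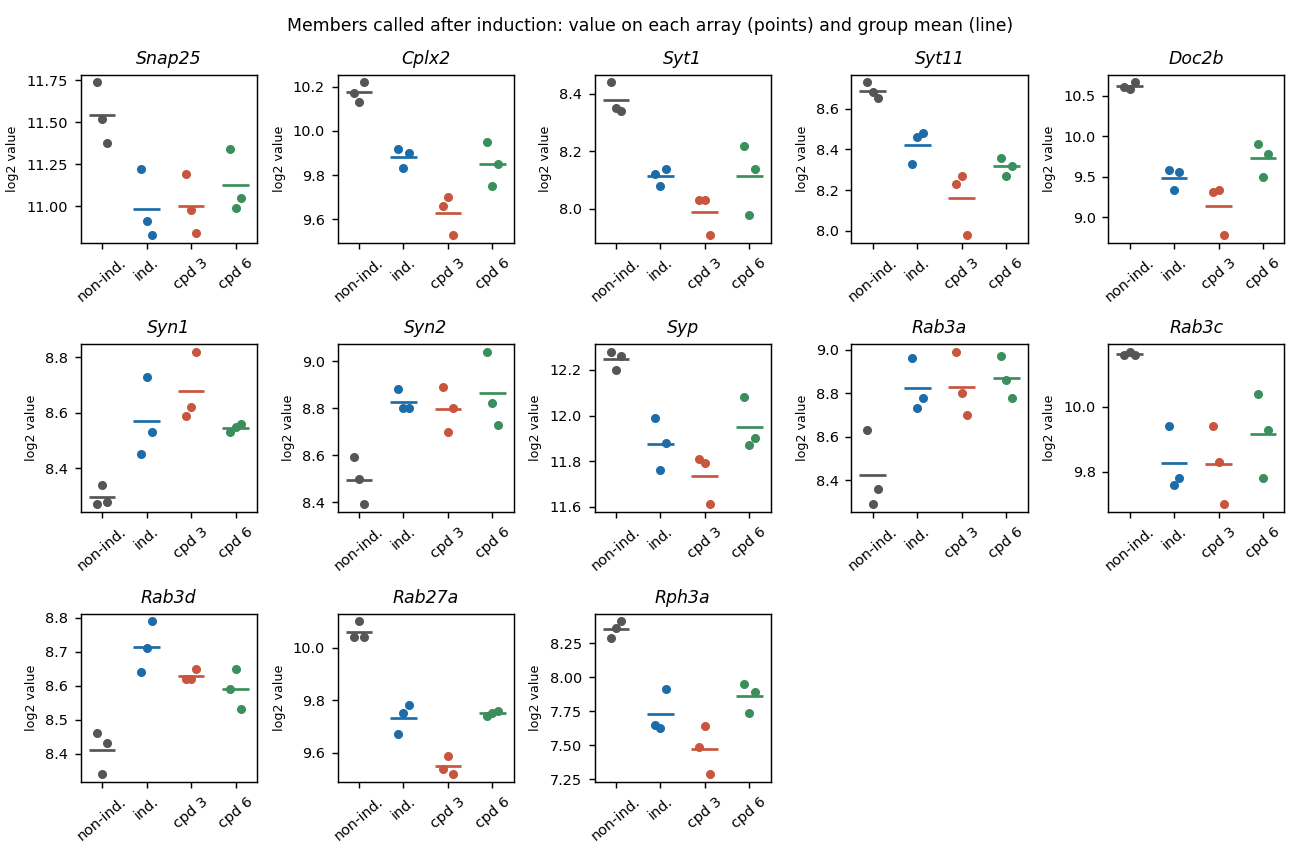
Each panel plots the log2 value (y axis, scaled separately per panel) of 1 of the 13 genes called after induction on each of the 12 arrays as points, with the group mean as a line, for non-induced DMSO (non-ind.), induced DMSO (ind.), compound 3 (cpd 3) and compound 6 (cpd 6). In every panel the induced DMSO points lie wholly above or wholly below the non-induced points.

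The calls of Doc2b, Rab3d, Rab27a and Rph3a stayed under all 23 alternative settings, and those of the other 9 each ended without at least 1 array. Without induced DMSO 2, 4 of the 33 genes were called, without non-induced DMSO 3, 6, and without non-induced DMSO 2 or induced DMSO 3, 7 each. Snap25 lost its call without non-induced DMSO 1 or 2 or induced DMSO 2 or 3 (-0.57 to -0.46, adjusted p 0.0627 to 0.0932). Syt1 lost it without any 1 non-induced array or induced DMSO 2 (-0.28 to -0.23, adjusted p 0.0578 to 0.0932) and when its feature was averaged with its second one, which lay below the filter (-0.16, adjusted p = 0.0555), and Cplx2 without non-induced DMSO 3 or induced DMSO 2 (-0.27 and -0.26, adjusted p 0.0627 and 0.0633) and after quantile normalisation (-0.19, adjusted p = 0.0785). Syn2 and Rab3a lost theirs without non-induced DMSO 2 or 3 or any 1 induced DMSO array (0.28 to 0.35, adjusted p 0.0502 to 0.118, and 0.33 to 0.44, adjusted p 0.0571 to 0.13). Rab3c did so without non-induced DMSO 2 or 3 or induced DMSO 2 or 3 (-0.34 to -0.30, adjusted p 0.0637 to 0.0874), and Syp without induced DMSO 2 (-0.31, adjusted p = 0.0564), after quantile normalisation (-0.14, adjusted p = 0.229) and after cyclic loess (-0.25, adjusted p = 0.0799). Syt11 and Syn1 lost theirs without 10 of the 12 arrays each, the exceptions being compound 3 arrays 2 and 3 for Syt11 and induced DMSO 1 and compound 3 array 3 for Syn1 (adjusted p up to 0.118 and 0.161). Median scaling left 1 gene called higher and 9 lower. With the GC-rich background level as a covariate 9 genes were called, and Snap25, Syt1, Syn1 and Rab3c lost their calls. Where only the arrays of the 2 groups were fitted, the compound arrays did not enter the spread. In that fit Snap25, Syt11, Syn1 and Rab3a did not pass (adjusted p = 0.0626, 0.0661, 0.131 and 0.0985).

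Other genes of the same pathway were taken from 5 lists written from general knowledge, also with those earlier results in view, with 107 genes tested. After induction 8 of them rose (background 4.2% of all features and 7.14% of those with 1 gene symbol) and 9 fell (background 4.86% and 4.89%). The list of other SNAREs and their regulators had 4 risers and 2 fallers among 19 tested. Snap23, the widely expressed relative of Snap25, rose by 0.75 ± 0.05 log2 units (adjusted p = 9.03e-05), the opposite direction to Snap25. The plasma membrane syntaxin Stx3 rose by 0.29, the Munc18 family gene Stxbp3 by 0.26 and Vamp5 by 0.25. Napb, the brain-enriched relative of Napa, fell by 0.49 (adjusted p = 0.0131) and the Golgi syntaxin Stx16 fell by 0.31.

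Among 26 Rab effector, priming and active zone genes, none rose and 4 fell, with Sytl4 changing most in size. Sytl4, which encodes granuphilin, an effector of Rab27 on dense-core granules, fell by 1.24 ± 0.09 (adjusted p = 9.03e-05). The liprin gene Ppfia2 fell by 1.06 ± 0.11 (adjusted p = 0.000318), Rph3al, which encodes the Rab3 and Rab27 effector Noc2, by 0.46 and the short RIM gene Rims4 by 0.41. Of 21 other synaptotagmin, synapsin and vesicle protein genes, Svop rose by 0.23 and Syt17 fell by 0.40. Exoc4 alone of 11 exocyst genes was called, higher by 0.21. Among 30 genes of membrane retrieval, the dynamin Dnm3 and the auxilin gene Dnajc6 rose by 0.33 and 0.32, and the endophilin Sh3gl3 and the clathrin adaptor gene Snap91 fell by 0.37 and 0.27. The calls of Stxbp3, Stx3, Stx16, Vamp5, Svop and Exoc4 each ended without induced DMSO 2, with 2, 2, 6, 5, 7 and 9 arrays in all whose omission ended them, and their highest adjusted p without an array were 0.0615, 0.059, 0.122, 0.14, 0.137 and 0.147. With each gene's features averaged, Rph3al lay at -0.20 (adjusted p = 0.058) and Dnm3 at 0.16 (adjusted p = 0.0708), and neither passed. Snap91 did not pass where only the arrays of the 2 groups were fitted (adjusted p = 0.05). The calls of Snap23, Napb, Syt17, Ppfia2, Rims4, Sh3gl3 and Dnajc6 stayed under all 23 alternatives, and that of Sytl4 under the 22 in which it was tested.

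**Figure D3:**
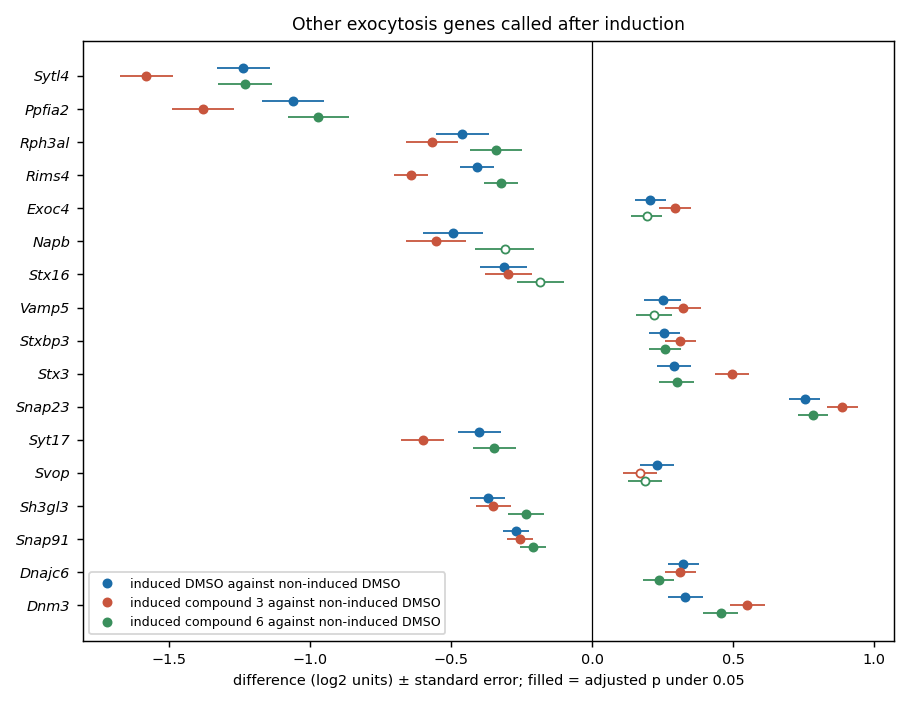
Points give the difference in log2 units (x axis, bars are standard errors of the model) from non-induced cells for the 17 listed genes called after induction, in induced DMSO, compound 3 and compound 6 groups, which share the non-induced arrays. Filled points passed the adjusted p threshold, and Sytl4 and Ppfia2 lie farthest left while Snap23 lies farthest right.

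Promoter windows were read from RefSeq for the rat build GRCr8, 250 bases before to 50 after each start, and were found for 29 of the 38 genes. The windows shown, 5′ to 3′ on the gene's strand, include those of Rab3a and Rab3c, which moved in opposite directions, and of Rab27a and Rph3a. Those of Syn1 and Vamp1, which held a cAMP response element, are shown too. The window of Rab3d, which rose, is not shown. Capitals mark the cAMP response element TGACGTCA and the GC box GGGCGG, searched on both strands, and each line holds the 250 bases before the start. They are Rab3a (chr16:18722274-18722523, minus strand), Rab3c (chr2:43575944-43576193, minus strand), Rab27a (chr8:82663123-82663372, plus strand), Rph3a (chr12:41203312-41203561, plus strand), Syn1 (chrX:3725495-3725744, plus strand) and Vamp1 (chr4:159698644-159698893, plus strand).
Rab3a: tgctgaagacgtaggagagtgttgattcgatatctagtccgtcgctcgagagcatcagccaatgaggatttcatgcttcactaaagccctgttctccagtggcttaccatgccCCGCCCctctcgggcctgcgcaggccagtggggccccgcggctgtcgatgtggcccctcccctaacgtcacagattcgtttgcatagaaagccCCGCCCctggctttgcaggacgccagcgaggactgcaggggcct
Rab3c: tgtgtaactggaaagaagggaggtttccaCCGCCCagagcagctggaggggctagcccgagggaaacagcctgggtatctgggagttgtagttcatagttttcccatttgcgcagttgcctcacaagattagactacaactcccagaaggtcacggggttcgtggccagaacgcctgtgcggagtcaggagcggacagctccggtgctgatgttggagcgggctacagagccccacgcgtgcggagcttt
Rab27a: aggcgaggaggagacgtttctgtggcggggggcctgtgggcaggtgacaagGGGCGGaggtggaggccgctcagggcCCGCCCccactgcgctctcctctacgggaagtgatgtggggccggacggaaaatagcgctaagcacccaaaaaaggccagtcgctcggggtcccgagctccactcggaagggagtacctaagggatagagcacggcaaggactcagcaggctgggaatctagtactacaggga
Rph3a: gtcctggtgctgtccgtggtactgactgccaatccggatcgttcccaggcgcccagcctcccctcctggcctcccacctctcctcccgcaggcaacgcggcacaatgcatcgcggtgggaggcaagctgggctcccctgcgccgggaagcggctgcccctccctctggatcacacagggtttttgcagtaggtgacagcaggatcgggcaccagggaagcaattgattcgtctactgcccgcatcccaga
Syn1: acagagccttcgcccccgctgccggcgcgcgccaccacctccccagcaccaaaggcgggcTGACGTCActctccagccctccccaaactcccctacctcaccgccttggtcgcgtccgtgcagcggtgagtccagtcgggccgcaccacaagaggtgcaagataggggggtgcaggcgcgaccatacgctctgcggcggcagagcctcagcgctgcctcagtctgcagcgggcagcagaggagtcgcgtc
Vamp1: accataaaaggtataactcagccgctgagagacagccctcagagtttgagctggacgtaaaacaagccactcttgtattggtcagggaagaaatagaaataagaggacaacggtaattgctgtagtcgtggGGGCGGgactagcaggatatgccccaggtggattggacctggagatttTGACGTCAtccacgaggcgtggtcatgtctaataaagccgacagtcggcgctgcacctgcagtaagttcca

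The cAMP response element, the palindrome bound by CREB family factors, was found in the windows of Syn1 (first base at -190), Vamp1 (-71) and Napa (-59), 3 of 29 genes, and in 1.83% of 33469 rat promoter windows. Syn1 rose after induction, Vamp1 lay lower without passing and Napa did not pass. The GC box, a site bound by SP1 family factors, was added after the values were seen. It was in 23 of the 29 windows and in 33.1% of all windows, or 41.8% of those of protein-coding genes. All 4 Rab3 genes held it, with matches starting at -137 and -44 in Rab3a, -95 and -30 in Rab3d, -221 in Rab3c and 33 in Rab3b. After induction Rab3a and Rab3d rose, Rab3c fell and Rab3b was not called. The part of the GC box in these changes was not tested. The RE1 element of the neuronal repressor REST, searched over its whole conserved core with no mismatch, was in none of the 29 windows. An exact match was in only 9 of all windows (0.0269%), so none would be found in 29 windows at that rate. That search therefore cannot tell whether these genes hold an RE1 site, and bases outside the windows were not searched. The motif matches describe these letters in these windows and show no binding.

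Compound 3 was then compared with DMSO in induced cells. None of the 33 genes passed limma's test (background 0.0232%), and 6 had an unadjusted p under 0.05 (background 7.29%), all of them lower (background 3.74%). Those 6 were Cplx2, Syt7, Syt11, Doc2b, Rab27a and Rph3a. In 8 genes the groups did not overlap, all lower with compound 3, beside a background of 5.18% for that direction. The median difference was -0.05 log2 units, beside 0 over all features.

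Rab27a read 9.54, 9.59 and 9.52 with compound 3, below all induced DMSO arrays, a difference of -0.18 with a 95% interval from -0.28 to -0.09 (adjusted p = 0.286). Cplx2 read 9.66, 9.70 and 9.53, again below all of them (-0.25, -0.39 to -0.12, adjusted p = 0.3). Syt11 read 8.23, 8.27 and 7.98 (-0.26, -0.42 to -0.10, adjusted p = 0.386) and Syt7, a slower and more calcium-sensitive synaptotagmin, read 7.41, 7.34 and 7.24 against 7.54, 7.46 and 7.57 with DMSO (-0.19, adjusted p = 0.518). In both, no compound 3 array reached the lowest DMSO array. Doc2b read 9.31, 9.33 and 8.78 and overlapped the DMSO arrays by sharing 1 value, 9.33 (-0.35, -0.66 to -0.04, adjusted p = 0.62). Rph3a read 7.49, 7.64 and 7.29 and overlapped too (-0.26, -0.47 to -0.04, adjusted p = 0.59). The genes that rose after induction stayed near their DMSO level: Rab3a read 8.99, 8.80 and 8.70, Rab3d 8.62, 8.62 and 8.65, Syn1 8.59, 8.62 and 8.82 and Syn2 8.89, 8.70 and 8.80, with differences of 0.01, -0.08, 0.11 and -0.03.

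With compound 6, none of the 33 genes passed limma's test against DMSO (background 0.00291%), and 2 had an unadjusted p under 0.05 (background 5.66%), Syt5 and Rab3d, both lower (background 3.43%). Syt5, a synaptotagmin of dense-core granules, read 8.93, 9.01 and 8.86 with compound 6 and 9.21, 9.28 and 9.25 with DMSO. Every compound 6 array was below every DMSO array, and the difference was -0.31 with a 95% interval from -0.43 to -0.19 (unadjusted p = 0.000109, adjusted p = 0.565). Syt5 was also near its DMSO level in non-induced cells, at 9.20, 9.19 and 9.26, and with compound 3, at 9.16, 9.24 and 9.31. Rab3d read 8.59, 8.65 and 8.53 with compound 6 (-0.12, -0.24 to -0.01, adjusted p = 0.877). Doc2b read 9.90, 9.50 and 9.78, overlapping the DMSO arrays (0.24, -0.08 to 0.55). The median difference was 0.01 log2 units, beside -0.01 over all features.

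The compounds were compared with each other directly, as 1 pair at the same dose and time. None of the 33 genes passed limma's test (background 0.0436%), and 9 had an unadjusted p under 0.05 (background 8.14%), 7 higher with compound 6 (background 3.88%) and 2 lower (background 4.26%). In 12 genes the groups did not overlap (background 14%), 8 of them higher with compound 6 (background 5.77%) and 4 lower (background 8.28%). Among features with 1 gene symbol these last 3 shares were 18.1%, 7.61% and 10.5%. The median difference was 0.08, beside -0.01 over all features. Doc2b, at 9.31, 9.33 and 8.78 with compound 3 and 9.90, 9.50 and 9.78 with compound 6, was higher with compound 6 by 0.59 log2 units, with a 95% interval from 0.27 to 0.90 (adjusted p = 0.194). Rph3a read 7.95, 7.74 and 7.89 with compound 6, above all compound 3 arrays (0.39, 0.17 to 0.60, adjusted p = 0.214). Rab27a read 9.74, 9.75 and 9.76 and did not overlap either (0.20, 0.10 to 0.30, adjusted p = 0.163). Cplx2 (9.95, 9.75 and 9.85), Syt7 (7.66, 7.48 and 7.50) and Syp (12.08, 11.87 and 11.90) lay 0.22, 0.22 and 0.21 above compound 3, where Syp read 11.81, 11.79 and 11.61. Syngr3, a synaptogyrin of the vesicle membrane, lay 0.21 higher.

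Syt5 lay lower with compound 6 than with compound 3 by 0.30 log2 units in size (-0.30, -0.42 to -0.18, adjusted p = 0.118), and Syt4, a synaptotagmin found on dense-core granules of PC12 cells, by -0.13. Syt5 passed only where arrays were weighted by their quality (adjusted p = 0.0361), and its adjusted p ranged from 0.0361 to 0.461 over the alternatives. For the remaining genes the intervals bound the difference: Stx1a differed by 0.05 (-0.06 to 0.16), Vamp2 by 0.03 (-0.14 to 0.20), Syt1 by 0.12 (-0.02 to 0.26) and Rab3a by 0.04 (-0.18 to 0.26). The half-width of these intervals had a median of 0.14 log2 units over the 33 genes.

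**Figure D4:**
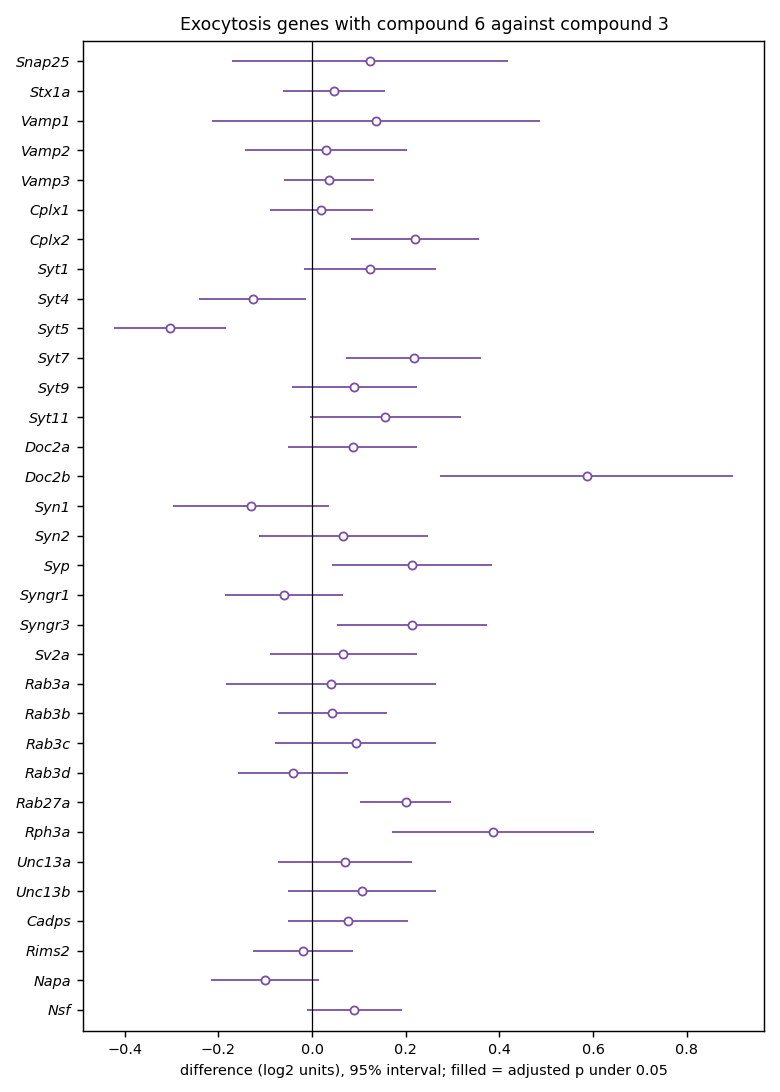
Points give the compound 6 minus compound 3 difference in log2 units (x axis) with 95% intervals for the 33 genes above the filter. All points are open because none passed the adjusted p threshold, with Doc2b farthest right at 0.59 and Syt5 farthest left at -0.30.

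Each compound group was finally set against non-induced cells. The induced DMSO arrays did not enter these differences, but they did enter the shared estimate of the spread behind the p-values. These comparisons share the 3 non-induced arrays with one another and with the induction comparison, so their values are given side by side and are not independent. With compound 3, 18 of 33 genes were called (background 15.2%), 5 higher (background 8.34%) and 13 lower (background 6.82%). Among features with a single gene symbol these shares were 21.6%, 13.9% and 7.69%. The 5 higher genes, 15.2% of the 33, were thus close to the share of 13.9%. With compound 6, 11 were called (background 7.68%), 2 higher (background 3.58%) and 9 lower (background 4.1%). Among features with a single gene symbol these shares were 9.97%, 6.15% and 3.82%. The 2 higher genes, 6.06% of the 33, were thus close to the share of 6.15%. The median differences were -0.10 with compound 3 and -0.06 with compound 6, beside 0.01 and 0 over all features. The F-test over all 4 group means called 16 of the 33 genes (background 10.3% of all features and 14% of those with a single gene symbol).

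By role, the synaptotagmin and Doc2 genes had 4 of 8 lower with either compound, and none higher. With compound 3 these were Syt1, Syt7, Syt11 and Doc2b, and with compound 6 Syt1, Syt5, Syt11 and Doc2b. Doc2b lay at -1.48 ± 0.14 log2 units with compound 3 (2.79-fold lower, adjusted p = 6.79e-05) and at -0.89 ± 0.14 with compound 6 (1.86-fold lower, adjusted p = 0.00393), beside -1.13 with DMSO. Syt11 lay at -0.53 (adjusted p = 0.000612) and -0.37 (adjusted p = 0.0112), and Syt1, which read 8.03, 8.03 and 7.91 with compound 3 and 8.22, 7.98 and 8.14 with compound 6, at -0.39 (adjusted p = 0.0017) and -0.26 (adjusted p = 0.028). Syt7, at 7.72, 7.59 and 7.60 in non-induced cells, was called with compound 3 (-0.31, adjusted p = 0.00795) and not with compound 6 (-0.09, adjusted p = 0.525). Its second feature did not show this (0.04 with compound 3, adjusted p = 0.899), and the mean of both features did not pass (-0.13, adjusted p = 0.372). Syt5 was called lower with compound 6 (-0.28, adjusted p = 0.0093) and not with compound 3 (0.02, adjusted p = 0.889).

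Among the docking genes, Rab27a lay at -0.51 ± 0.04 with compound 3 (adjusted p = 3.9e-05) and -0.31 ± 0.04 with compound 6 (adjusted p = 0.00234). Rph3a lay at -0.88 ± 0.10 (1.84-fold lower, adjusted p = 0.000155) and -0.49 ± 0.10 (1.41-fold lower, adjusted p = 0.0112). Rab3a, which read 8.97, 8.86 and 8.78 with compound 6, was higher by 0.40 (adjusted p = 0.0201) and 0.44 (adjusted p = 0.0224). Rab3c read 9.94, 9.83 and 9.70 with compound 3 (-0.34, adjusted p = 0.0123) and 10.04, 9.78 and 9.93 with compound 6 (-0.25, adjusted p = 0.0877, not called). Rab3d was higher by 0.22 with compound 3 (adjusted p = 0.0162), while its difference with compound 6 was 0.18 (adjusted p = 0.0679). Rab3b read 5.93, 5.99 and 5.90 with compound 3 and 6.02, 5.99 and 5.94 with compound 6 and was called in neither.

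The SNARE genes Snap25 and Vamp1 were called with compound 3 and not with compound 6. Snap25 read 11.19, 10.98 and 10.84 with compound 3 (-0.54, adjusted p = 0.0176) and 11.34, 10.99 and 11.05 with compound 6 (-0.42, adjusted p = 0.0892). Vamp1 read 8.57, 8.21 and 8.34 (-0.65, adjusted p = 0.017) and 8.62, 8.44 and 8.47 (-0.51, adjusted p = 0.0806). In both genes every compound-treated array lay below every non-induced array. Stx1a read 7.94, 7.99 and 7.92 with compound 3 and 7.97, 7.99 and 8.03 with compound 6, and Vamp2 10.18, 10.13 and 9.93 and then 10.10, 10.12 and 10.11, with no call in either. Cplx2 lay at -0.54 (adjusted p = 0.000185) and -0.32 (adjusted p = 0.00979).

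Among the vesicle proteins, Syp lay at -0.51 with compound 3 (adjusted p = 0.00102) and -0.30 with compound 6 (adjusted p = 0.0395). Syn2, at 9.04, 8.82 and 8.73 with compound 6, was higher by 0.30 (adjusted p = 0.0283) and 0.37 (adjusted p = 0.0189). Syn1, at 8.53, 8.55 and 8.56 with compound 6, was higher by 0.38 with compound 3 (adjusted p = 0.00541), and its compound 6 difference of 0.25 did not pass (adjusted p = 0.0742). Syngr1 read 7.72, 7.67 and 7.66 in non-induced cells, 7.73, 7.89 and 7.91 with DMSO, 7.80, 7.88 and 7.94 with compound 3 and 7.78, 7.85 and 7.81 with compound 6. It was called with compound 3 alone of the compounds (0.19, adjusted p = 0.0454). Cadps read 8.74, 8.77 and 8.75 with compound 3 (-0.29, adjusted p = 0.00527) and 8.88, 8.72 and 8.89 with compound 6 (-0.22, adjusted p = 0.0456). Nsf read 10.07, 10.07 and 10.05 with compound 3 (-0.21, adjusted p = 0.00957) and 10.24, 10.09 and 10.13 with compound 6 (-0.12, adjusted p = 0.168). A call with one compound and not with the other is not a difference between them, and none of these genes passed in the direct comparison.

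**Figure D5:**
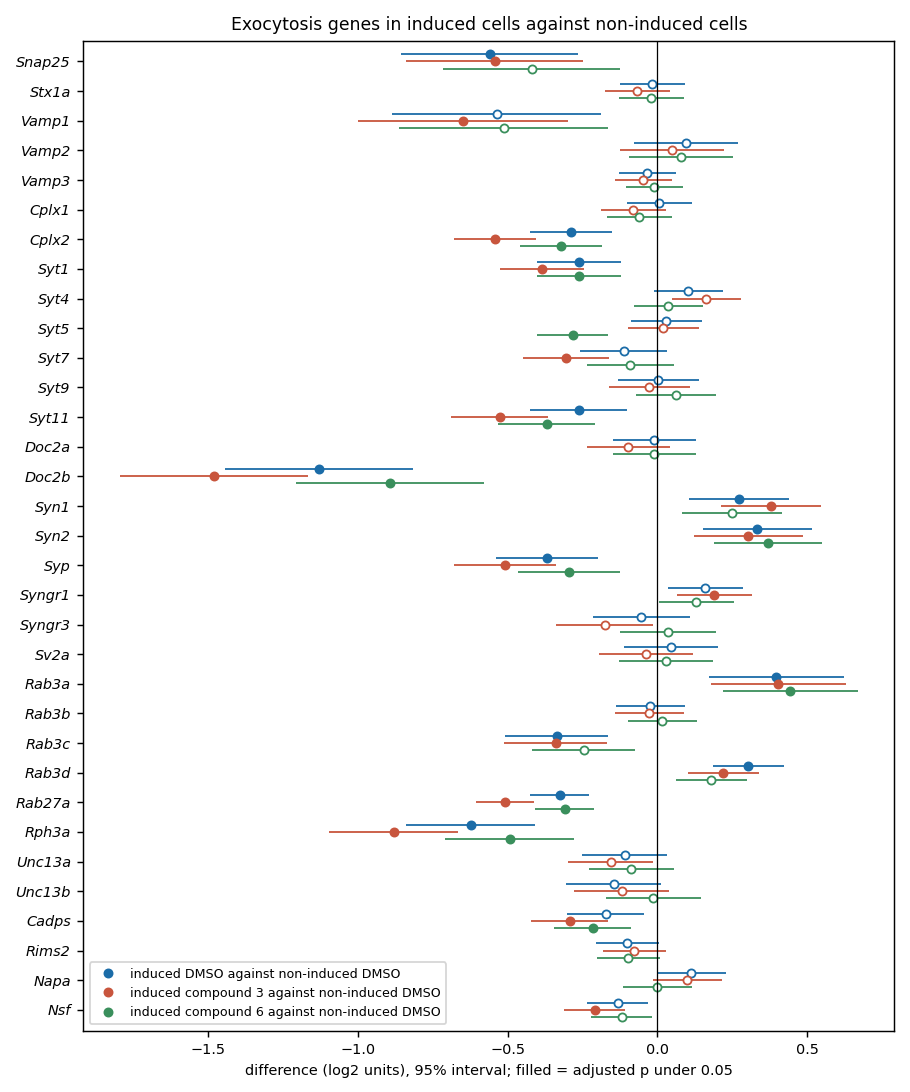
Points give the difference from non-induced cells in log2 units (x axis) with 95% intervals for the 33 genes above the filter, in induced cells with DMSO, compound 3 and compound 6, which share the 3 non-induced arrays. Filled points passed the adjusted p threshold, and Doc2b lies at -1.13, -1.48 and -0.89.

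With compound 3, the calls of Cplx2, Syt1, Syt11, Doc2b, Syn1, Syp, Rab27a, Rph3a and Cadps stayed under all 23 alternatives. Single arrays ended the calls of Snap25 (without non-induced DMSO 1 or compound 3 array 2 or 3, adjusted p up to 0.08), Vamp1 (without compound 3 array 2 or 3, up to 0.0669), Rab3a (without non-induced DMSO 2 or 3 or compound 3 array 1, up to 0.0862) and Rab3c (without compound 3 array 3, 0.0572). They also ended those of Rab3d (without non-induced DMSO 2 or compound 3 array 3, up to 0.0742), Syn2 (without non-induced DMSO 2 or 3 or compound 3 array 1 or 3, up to 0.122) and Syngr1 (without any of 9 arrays, up to 0.167). The call of Nsf ended after quantile normalisation (-0.14, adjusted p = 0.106). Where only the arrays of the 2 groups were fitted, Rab3a and Syngr1 did not pass (adjusted p = 0.0505 and 0.0564). Of the calls that stayed, that of Syt1 lay at -0.20 with its features averaged (adjusted p = 0.0129) and that of Syp at -0.32 after quantile normalisation (adjusted p = 0.00591). Same-numbered arrays of these groups deviated together, and with the replicate number as a block 19 genes were called, the 18 and Unc13a (-0.16, adjusted p = 0.148 without the block and 0.0399 with it).

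With compound 6, Syt5, Doc2b and Rab27a stayed under all 23 alternatives. Without non-induced DMSO 3 or compound 6 array 2, 4 genes were called, and without non-induced DMSO 2, 7. The call of Cplx2 ended without non-induced DMSO 3 (adjusted p = 0.0501), that of Syt11 without compound 6 array 2 (0.0528) and that of Rph3a without either (0.0534 and 0.0551). Syt1 lost its call without any 1 non-induced array or compound 6 array 2 or 3 (adjusted p up to 0.105), and with its features averaged it lay at -0.17 (adjusted p = 0.0497). Syn2 and Rab3a lost theirs without non-induced DMSO 2 or 3 or compound 6 array 1 or 2 (up to 0.089 and 0.0953), Syp without any 1 non-induced array, compound 3 array 2 or compound 6 array 2 or 3 (up to 0.156), and Cadps without any array but non-induced DMSO 2 (up to 0.175). After quantile normalisation Syp lay at -0.09 (adjusted p = 0.517), and after cyclic loess at -0.20 (adjusted p = 0.179). Where only the arrays of the 2 groups were fitted, Syt1, Syn2 and Cadps did not pass (adjusted p = 0.0695, 0.0505 and 0.121), while Syn1 did.

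In the other lists, 14 of 107 genes were higher with compound 3 (background 8.34% of all features and 13.9% of those with 1 gene symbol) and 12 lower (background 6.82% and 7.69%). With compound 6, 7 were higher (background 3.58% and 6.15%) and 8 lower (background 4.1% and 3.82%). Snap23 lay at 0.89 (adjusted p = 6.53e-06) and 0.78 (adjusted p = 0.000111), Sytl4 at -1.58 (adjusted p = 6.53e-06) and -1.23 (adjusted p = 0.000138), and Ppfia2 at -1.38 and -0.97. Stx3 lay at 0.50 and 0.30, Rims4 at -0.64 and -0.32, Syt17 at -0.60 and -0.35 and Dnm3 at 0.55 and 0.46, each called in both. With compound 6 the call of Syt17 ended without any of 4 arrays (adjusted p up to 0.0816) and that of Stx3 without any of 3 (up to 0.0583). With its features averaged, Dnm3 lay at 0.31 (adjusted p = 0.00168) and 0.26 (adjusted p = 0.01). Of the 11 exocyst genes, Exoc1, Exoc4, Exoc5 and Exoc6 were higher with compound 3, by 0.15, 0.29, 0.23 and 0.15, and none passed with compound 6. Of these, Exoc4 stayed under all 23 alternatives. The calls of Exoc1, Exoc5 and Exoc6 ended without any of 4, 4 and 6 arrays (adjusted p up to 0.116, 0.0964 and 0.079), without the filter and under median scaling. The active zone gene Pclo was called with compound 3, higher by 0.48, and Rimbp2 lower by 0.29. Against DMSO in induced cells, none of the 107 listed genes passed limma's test with either compound, and none passed between the compounds. For compound 3, 14 had an unadjusted p under 0.05 (background 7.29% of all features and 8.55% of those with 1 gene symbol). For compound 6 it was 0 (background 5.66% and 4.88%), and between the compounds 17 (background 8.14% and 10.5%).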

How the data were processed

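RNA (250 ng total per sample) from 12 PC12 samples had been hybridised to Affymetrix rat whole-transcript arrays. The deposited values are log2 expression per feature, normalised by the authors, and per the submitters' processing notes the tools were RMA, a method of robust averaging over arrays, and Affymetrix Expression Console; versions, options and the build behind the array annotation are not given in the sources used here. Arrays give no read depth, and their number limits the precision.

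After 1738 control features were left out, features whose mean reached 4.63 log2 units, the median over feature means, were kept (34422 of 68842). In R 4.3.3 with limma 3.58.1, 1 model with 4 group means was fitted to all 12 arrays (lmFit, contrasts.fit, eBayes without a trend, 8 residual degrees of freedom, prior 3.27), with Benjamini-Hochberg adjustment over the features kept and a threshold of 0.05. Intervals are 95% intervals of that model. The 6 pairwise comparisons and an F-test were made. The script was tested on simulated data. Figures used Python 3.11.15, matplotlib 3.10.9 and pandas 2.3.3. Probe levels were not compared between genes.

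The genes, the 5 further lists and the markers were chosen with earlier results of these data known, and no list was tested as a set. Array values are printed for genes called in any comparison and for Snap25, Stx1a, Vamp2, Syt1 and Rab3a to Rab3d. From the other lists, up to 4 genes called in each direction with the smallest p were eligible for naming. Gene symbols are those of the platform annotation.

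Replicate numbers come from the sample labels, which do not say that a number marks a shared culture or day. Deviations of same-numbered arrays from their group means correlated at 0.41, 0.26 and 0.11 for compound 3 and non-induced arrays. The main fit held no pairing, so the values reported for this comparison are unpaired. The replicate number entered only as a block in 1 of the alternatives. In every other comparison at least 1 correlation was under 0.1. No 2 arrays were identical (0 pairs).

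There were 23 alternatives. The filter was dropped or raised to the 75th percentile. Values were rescaled by array medians, by quantiles or by cyclic loess. The fit used array weights, an intensity trend together with a robust prior, the replicate number as a block, or the arrays of the 2 compared groups alone. A gene's features were averaged, and each of the 12 arrays was left out in turn. A fit with the GC-rich background level as a covariate was chosen after seeing the data.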

Additional observations from a re-analysis of the deposited data

How the results depend on the processing

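Of 42 calls of single genes, 16 held under all 23 alternatives and none reversed. Without the filter 8 genes were called after induction (1 higher, 7 lower) and 8 in the F-test. With array weights 1 gene, Syt5, was called between the compounds. Leaving out 1 array gave 4 to 13 called genes after induction, 12 to 18 with compound 3 and 4 to 11 with compound 6 against non-induced cells, 8 to 18 in the F-test and 0 to 0 in the comparisons among induced cells; for the F-test, non-induced DMSO 1, 2 and 3 and compound 3 array 2 left 10, 9, 8 and 10 genes when omitted. Calls after induction split into 1 higher and 9 lower under median scaling, 4 and 6 under quantile normalisation and 3 and 9 under cyclic loess, and no scaling moved the median of all features by over 0.1. Under each alternative run, the median difference over the 33 genes moved from its reported value by less than 0.0581. That is the SD between replicates of the genes' median log2 level. It exceeds in size the medians of -0.05 after induction and of -0.05 and 0.01 with compounds 3 and 6 against DMSO. The bound therefore cannot show that those 3 kept their sign. With 1 array left out, the last ran from -0.01 to 0.04. The cause of these shifts was not tested.

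With the replicate number as a block, 13 genes were called after induction (Vamp1 gained, adjusted p = 0.00303, and Syt11 lost, adjusted p = 0.0604), 14 with compound 6 against non-induced cells (Snap25, Vamp1 and Rab3c gained, adjusted p = 0.00204, 0.00626 and 0.0419), 17 in the F-test and 0 among induced cells, and it changed no other call of the 33 genes but that of Unc13a given above. Of the 12 arrays, 6 correlated best with an array of their own number, a hint from the data and not from the design. Each array could match arrays of all 3 numbers, so some such matches arise without any pairing. The 18 same-number correlations ran from -0.17 to 0.45, and 10 of them were over 0.1.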
